A study of Mus musculus with 20 samples.

Results

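Hepatokines are proteins that hepatocytes release into the blood and that act on other tissues, and the angiopoietin-like proteins are a secreted family of which several act on lipid metabolism. The group described here was set by gene symbol as Fgf21, Gdf15, Angptl4, Angptl6, Inhbe, Fst, Lect2, Fetub and Ahsg. Of these 9 genes, 8 had a row with a platform symbol, each with 1 probe set, among the 22206 probe sets of the table. Gdf15 was not analysed here.

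Gene expression was measured in mouse liver with 1 Affymetrix array per liver, 20 livers in all, 5 in each of 4 groups. The groups were fasted Mcl1(L-/-), fed Mcl1(L-/-), fasted WT and fed WT, and the Mcl1(L-/-) genotype is called Mcl1KO below. Mcl1 encodes an anti-apoptotic BCL2 family protein. Fasted mice were held singly on wire-bottom floors for 48 h without food but with water. The housing of fed mice is not given here, so fasting below stands for food withdrawal together with any difference in housing. The growth note attached to all 20 livers describes floxed mice given an adeno-associated virus, AAV-LP1-Cre, whose LP1 promoter drives expression in hepatocytes. The labels do not say what was injected into WT mice, nor do they state age, sex or strain. Liver cells other than hepatocytes are not its target.

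During a fast, fatty acids released from adipose tissue reach the liver and activate PPARα, the nuclear receptor that turns on fat oxidation and ketone production. Fgf21, a hormone that needs the coreceptor β-Klotho, and Angptl4, which inhibits lipoprotein lipase, are well known PPARα targets in mouse liver. Fgf21 and Inhbe are also known targets of the integrated stress response, in which the factor ATF4 binds composite sites shared with C/EBP proteins. Inhbe encodes the activin βE subunit, and follistatin (Fst) binds and neutralises activins. Lect2 is a hepatocyte chemotactic factor that binds the receptors MET and TIE1. Fetub and Ahsg encode fetuin-B and fetuin-A, abundant plasma proteins of the cystatin superfamily.

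The start-site windows of 4 genes are shown. Fgf21, Inhbe and Nupr1 share an 8-base motif, and Lect2 is the member with the largest fasting difference. Lect2 holds none of the motifs searched, and neither do Angptl6 and Ahsg. Nupr1, a stress-response gene, is included as the gene with the highest Pearson r with Fgf21 over the livers. Fasted Mcl1KO replicate 4 stands far out for both genes (Fgf21 6.35, Nupr1 7.18) and weighs heavily in that r, which was not recomputed without it. Each window is taken from RefSeq (GRCm38.p6), minus strand, 250 bases before to 50 bases after the start, written 5′ to 3′. Capitals mark the C/EBP-ATF composite core TTGCATCA and the E-box CACGTG. The positions are chr7:45615441-45615740 for Fgf21, chr10:127351799-127352098 for Inhbe, chr7:126625421-126625720 for Nupr1 and chr13:56548489-56548788 for Lect2.
Fgf21 promoter: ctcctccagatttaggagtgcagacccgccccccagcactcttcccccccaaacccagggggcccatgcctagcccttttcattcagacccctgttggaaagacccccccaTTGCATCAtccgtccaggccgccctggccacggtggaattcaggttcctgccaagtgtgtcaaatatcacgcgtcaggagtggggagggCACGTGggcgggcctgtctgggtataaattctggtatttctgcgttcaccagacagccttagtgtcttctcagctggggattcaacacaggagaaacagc
Inhbe promoter: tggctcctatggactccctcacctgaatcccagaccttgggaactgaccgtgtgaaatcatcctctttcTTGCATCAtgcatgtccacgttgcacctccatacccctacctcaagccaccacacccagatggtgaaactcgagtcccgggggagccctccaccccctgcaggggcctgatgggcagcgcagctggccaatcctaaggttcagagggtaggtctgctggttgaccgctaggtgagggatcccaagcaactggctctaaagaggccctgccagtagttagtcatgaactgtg
Nupr1 promoter: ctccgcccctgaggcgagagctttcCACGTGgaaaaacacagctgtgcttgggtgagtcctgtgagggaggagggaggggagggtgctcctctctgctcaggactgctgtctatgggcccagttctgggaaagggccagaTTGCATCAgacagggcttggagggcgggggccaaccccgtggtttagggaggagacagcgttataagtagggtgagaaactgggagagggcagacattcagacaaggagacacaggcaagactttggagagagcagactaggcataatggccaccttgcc
Lect2 promoter: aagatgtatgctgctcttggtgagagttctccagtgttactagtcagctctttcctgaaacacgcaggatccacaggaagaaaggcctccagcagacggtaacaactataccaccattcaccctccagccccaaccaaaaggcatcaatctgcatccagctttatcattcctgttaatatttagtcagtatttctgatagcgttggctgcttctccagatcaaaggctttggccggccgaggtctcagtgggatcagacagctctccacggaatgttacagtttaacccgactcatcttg
TTGCATCA lay at bases -139 to -132 from the start of Fgf21, at -181 to -174 in Inhbe and at -110 to -103 in Nupr1. It was found on either strand in 0.895% of 32851 windows of the same length. CACGTG lay at -50 to -45 in Fgf21 and at -225 to -220 in Nupr1, and 7.15% of windows hold it. The nuclear receptor core AGGTCA (16.3% of windows), and its direct repeat spaced by 1 base (0.0396% of windows), had no match in the windows of the members that had one. The repeat, searched in its exact letters, was also found in 0 of 17 listed PPARα targets with a window. Its absence therefore does not show that a member lacks a PPARα site. The forkhead core TGTTTAC, in 3.65% of windows, matched only in a window of Fetub, at -236 to -230. RefSeq windows were found for 6 of the 8 members. Angptl4 and Fst had none, so their promoters were not searched. The motifs were chosen with these windows in view, and a match is a description of the letters, not of binding.

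The 20 arrays had medians between 3.35 and 3.47 and no 2 arrays were identical. Mcl1 itself averaged 6.14 ± 0.25 in fasted Mcl1KO livers, 6.09 ± 0.16 in fed Mcl1KO livers, 7.28 ± 0.09 in fasted WT livers and 7.43 ± 0.15 in fed WT livers (log2 signal, SD, n = 5 each), and it was called lower in Mcl1KO livers in both feeding states. The summed signal of 16 hepatocyte markers lay between 15.79 and 15.91 log2 units on the 20 arrays. That sum is carried by bright markers such as Alb (group means of 12.46 to 12.49) and Apoa1 (12.26 to 12.43). These lie near the highest value of any probe set (12.56), where array signals are compressed, so the narrow range says little about hepatocyte content. Fasted Mcl1KO replicates 3 and 4 lay apart from their group on the first principal component, which holds 34.2% of the variance, with scores of 18.3 and 27.0 against 42.1 to 46.8 for the other 3 fasted Mcl1KO arrays. Values below are the authors' normalised log2 signals, so a difference of 1 is a doubling, and probe affinity differs between genes, so levels are not compared between genes. Differences were tested with limma across all probe sets, with Benjamini-Hochberg adjustment and a call at an adjusted p below 0.05. Exact permutation tests of the 8 members in 4 pairwise comparisons gave 32 unadjusted p-values, of which the smallest possible is 0.00794 with 5 against 5 livers. In bulk liver RNA, fewer cells of a type and less RNA per cell cannot be told apart.

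Fasting lowered Lect2 in both genotypes and raised Angptl4 in Mcl1KO livers, and no other member was called in any comparison. In Mcl1KO livers 2 of 8 members were called, 1 higher and 1 lower, where 14.4% of all probe sets were called (8.2% higher, 6.25% lower). In WT livers 1 of 8 was called, lower, where 6.79% of all probe sets were called (3.1% higher, 3.68% lower). The median log2 difference of the 8 members was -0.02 in Mcl1KO livers and 0.03 in WT livers, against -0.002 and 0.015 over all probe sets. A single gene of the 8 is 12.5%, so the shares cannot be set apart from those of all probe sets.

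**Figure D1:**
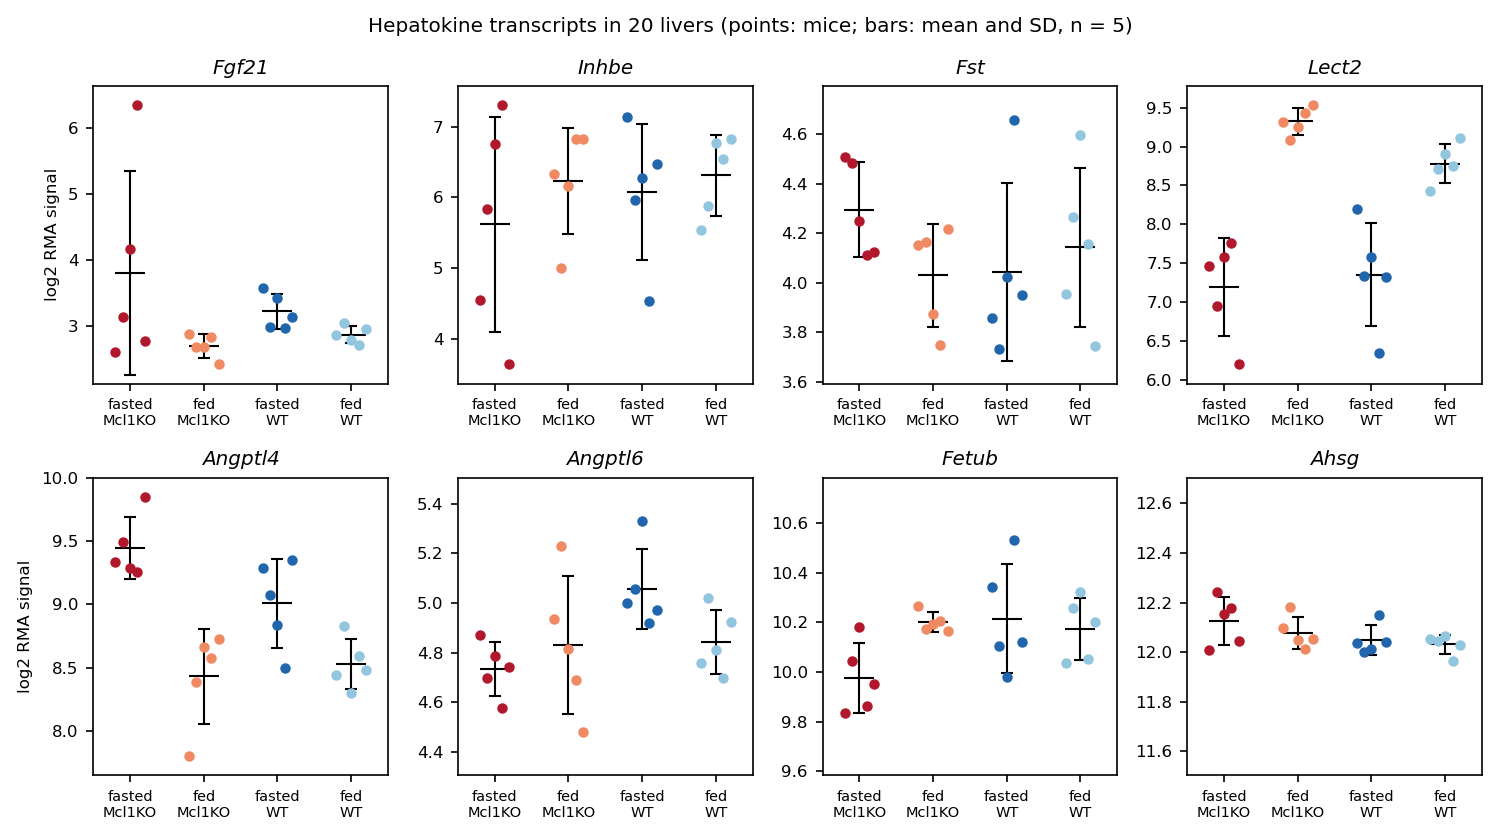
Log2 signal of each of the 8 members in every liver, with 1 point per liver and a bar at the mean of each group of 5. Lect2 separates fasted from fed livers in both genotypes, Angptl4 does so in Mcl1KO livers, and Fgf21 has 1 fasted Mcl1KO liver at 6.35.

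Lect2 had log2 signals of 7.46, 6.96, 7.58, 7.76 and 6.21 in fasted Mcl1KO livers, against 9.32, 9.08, 9.25, 9.43 and 9.53 in fed Mcl1KO livers. In WT livers it had 8.20, 7.34, 7.58, 6.35 and 7.32 after fasting, against 8.43, 8.71, 8.90, 8.75 and 9.11 when fed. Each fasted liver lay below every fed liver of its genotype, and the fasted livers were more spread than the fed ones. Lect2 fell by 2.13 on the log2 scale with fasting in Mcl1KO livers (SE 0.26, 4.37-fold, limma adjusted p = 3.57e-06). It fell by 1.42 in WT livers (SE 0.26, 2.68-fold, limma adjusted p = 0.00104). The exact permutation p was 0.00794 in either genotype, and 10.2% of all probe sets in Mcl1KO livers and 7.36% in WT livers had groups that did not overlap. The fasting difference was larger by 0.71 in Mcl1KO livers, but the interaction was not called (log2 -0.71, SE 0.37, limma adjusted p = 0.491). Ordered by group mean, fed Mcl1KO livers stood at 9.32 ± 0.17, fed WT livers at 8.78 ± 0.25, fasted WT livers at 7.36 ± 0.67 and fasted Mcl1KO livers at 7.19 ± 0.63. The neighbours at the top differed by 0.54 (95% interval -0.01 to 1.09, limma adjusted p = 0.787, exact permutation p = 0.0159), and those at the bottom by -0.16 (limma adjusted p = 0.819).

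The receptor gene Met had 6.37, 5.88, 7.28, 6.80 and 6.21 in fasted Mcl1KO livers, against 7.47, 7.53, 7.51, 7.84 and 7.80 in fed Mcl1KO livers. Those groups did not overlap. Met fell by 1.12 with fasting in Mcl1KO livers (limma adjusted p = 9.19e-05) and was lower by 0.77 in fasted Mcl1KO than in fasted WT livers (log2 -0.77, limma adjusted p = 0.0158). Of 17 receptor and coreceptor genes of the members, 1 rose and 3 fell with fasting in Mcl1KO livers, and 0 rose and 3 fell in WT livers. Their medians were 0.01 and -0.04. Fgfr2, which encodes a fibroblast growth factor receptor, fell by 0.95 in Mcl1KO livers (limma adjusted p = 0.000576) and by 0.97 in WT livers (limma adjusted p = 0.00103). In WT livers Fgfr3 fell by 0.79 (limma adjusted p = 0.0109). Itgb1, an integrin subunit, rose by 0.31 in Mcl1KO livers (limma adjusted p = 0.0258).

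Angptl4 had log2 signals of 9.34, 9.49, 9.28, 9.25 and 9.85 in fasted Mcl1KO livers, against 7.80, 8.39, 8.66, 8.58 and 8.72 in fed Mcl1KO livers. It had 9.29, 9.07, 8.84, 8.50 and 9.35 in fasted WT livers, against 8.44, 8.82, 8.30, 8.59 and 8.48 in fed WT livers. The Mcl1KO groups did not overlap. In WT livers fasted replicate 4, at 8.50, lay below 2 fed livers. Angptl4 rose by 1.01 with fasting in Mcl1KO livers (SE 0.17, 2.02-fold, limma adjusted p = 0.000200, exact permutation p = 0.00794). In WT livers the difference was 0.48 (SE 0.17, limma adjusted p = 0.113, exact permutation p = 0.0317), so Angptl4 was not called there. Without fasted WT replicate 4 the WT difference was 0.61 (limma adjusted p = 0.0331), and with all livers kept and weighted by array quality it was 0.53 (limma adjusted p = 0.0450). The other 27 of 29 alternatives left Angptl4 uncalled in WT livers. Leaving out 1 liver at a time gave WT differences of 0.40 to 0.61, with limma adjusted p from 0.0331 to 0.258. The difference between the 2 fasting effects was 0.53 (SE 0.25, limma adjusted p = 0.423). By mean, fasted Mcl1KO livers came first (9.44 ± 0.24), then fasted WT (9.01 ± 0.35), fed WT (8.53 ± 0.20) and fed Mcl1KO livers (8.43 ± 0.37). Fasted Mcl1KO and fasted WT livers differed by 0.43 (limma adjusted p = 0.169, exact permutation p = 0.0714).

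Other genes listed around lipoprotein lipase, not all of them its regulators, gave mixed directions. Of 13 measured, 3 were higher and 3 lower with fasting in Mcl1KO livers, and 2 higher and 2 lower in WT livers. Angptl8, a feeding-induced family member that acts on lipoprotein lipase with a related protein, averaged 4.66 ± 1.08 in fasted Mcl1KO livers and 7.14 ± 0.91 in fed Mcl1KO livers. It averaged 5.98 ± 0.91 in fasted WT livers and 7.98 ± 0.85 in fed WT livers. Angptl8 fell by 2.47 in Mcl1KO livers (limma adjusted p = 0.00108) and by 2.0 in WT livers (limma adjusted p = 0.0145), opposite in sign to Angptl4. It was the 1 gene called among 8 measured angiopoietin-like and related genes in either genotype. Apoa5, an activator of plasma triglyceride clearance, rose by 0.83 in Mcl1KO livers (limma adjusted p = 0.00118) and by 0.90 in WT livers (limma adjusted p = 0.00131). In Mcl1KO livers Lipg, endothelial lipase, fell by 1.67 (limma adjusted p = 0.00392).

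Angptl6, a family member linked to energy expenditure in mice, had 4.87, 4.70, 4.79, 4.57 and 4.74 in fasted Mcl1KO livers, against 5.0, 5.06, 5.33, 4.92 and 4.97 in fasted WT livers. These groups did not overlap. The difference of -0.32 (SE 0.12) had an exact permutation p of 0.00794 and a limma adjusted p of 0.134. Groups failed to overlap for 3.9% of all probe sets in this comparison. Fed Mcl1KO livers ranged from 4.48 to 5.23 and fed WT livers from 4.70 to 5.02, overlapping both fasted groups. The fasting differences were -0.10 in Mcl1KO livers and 0.21 in WT livers, neither called.

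Fgf21 had log2 signals of 2.60, 3.14, 4.16, 6.35 and 2.77 in fasted Mcl1KO livers, against 2.87, 2.67, 2.67, 2.82 and 2.41 in fed Mcl1KO livers. It had 3.57, 2.98, 3.43, 2.97 and 3.14 in fasted WT livers, against 2.86, 3.03, 2.77, 2.70 and 2.95 in fed WT livers. Fasted Mcl1KO replicates 4 and 3 stood above every other liver, whereas replicates 1 and 5 of that group lay within the range of fed Mcl1KO livers. In 17 of 20 livers Fgf21 was below the median of its own array, so its differences there are small and compressed. The SD was 1.55 in fasted Mcl1KO livers, against 0.18 in fed Mcl1KO, 0.27 in fasted WT and 0.13 in fed WT livers, so the shared spread of the fit describes none of them well.

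The fasting difference of Fgf21 was 1.11 in Mcl1KO livers (SE 0.43, limma adjusted p = 0.0887, exact permutation p = 0.0952). It was 0.35 in WT livers (SE 0.43, limma adjusted p = 0.764, exact permutation p = 0.0317). Leaving out fasted Mcl1KO replicate 4 gave 0.48 in Mcl1KO livers (limma adjusted p = 0.168). Leaving out replicate 1 gave 1.41 (limma adjusted p = 0.0270) and replicate 5 gave 1.37 (limma adjusted p = 0.0377), so the call depends on which liver is in the fit. Fasted Mcl1KO and fasted WT livers differed by 0.58 (limma adjusted p = 0.522, exact permutation p = 0.556).

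Klb, which encodes β-Klotho, differed by 0.32 with fasting in Mcl1KO livers and by 0.40 in WT livers, neither called. Among 22 measured PPARα targets, 18 rose and 1 fell in Mcl1KO livers (median 1.83), and 12 rose and 1 fell in WT livers (median 0.79). Cyp4a14, a fatty acid ω-hydroxylase, rose by 3.47 in Mcl1KO livers (limma adjusted p = 0.000267) and by 2.08 in WT livers (limma adjusted p = 0.0410). Between fasted Mcl1KO and fasted WT livers 9 of the 22 were higher, among them Cidec, a lipid droplet protein (2.80, limma adjusted p = 8.44e-05), and Pdk4, a kinase that shuts off glucose oxidation (2.19, limma adjusted p = 0.00350). The mean of the list was between 8.59 and 8.82 in fasted Mcl1KO livers and between 7.36 and 8.24 in fasted WT livers, lowest in fasted WT replicate 4. Angptl4 was also lowest in that liver of its group.

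Of 26 integrated stress response targets, 6 rose with fasting in Mcl1KO livers (median 0.10) and 4 in WT livers (median 0.13), and 0 fell in either. Ddit4, an inhibitor of mTORC1, rose by 2.76 in Mcl1KO livers (limma adjusted p = 4.78e-05) and by 1.49 in WT livers (limma adjusted p = 0.0322). Asns, asparagine synthetase, rose by 1.18 in WT livers (limma adjusted p = 0.00602). Atf5, a stress-induced transcription factor, rose by 1.33 in Mcl1KO livers (limma adjusted p = 3.68e-06) and by 1.0 in WT livers (limma adjusted p = 0.000298). Atf4 was higher by 0.76 in fasted Mcl1KO than in fasted WT livers (limma adjusted p = 0.0118). The list mean was highest in fasted Mcl1KO replicate 4, at 5.25, the liver with the highest Fgf21, and lowest in replicate 3 of that group, at 4.74, the liver with the second highest Fgf21. TTGCATCA was found in 5 of the 22 listed genes with a window (22.7%), namely Atf3, Chac1, Nupr1, Slc7a11 and Vldlr. Among all 27025 genes with a window, 1.03% held it. It was found in 0 of 17 PPARα targets with a window, too few genes to set apart from that share. AGGTCA was found in 2 of the 22 (9.09%) and in 8 of the 17 (47.1%), against 18.1% of all genes. Both lists hold known targets, and ATF4, the factor of the stress response, binds C/EBP-ATF composite sites. TTGCATCA was also chosen with the window of Nupr1, 1 of the 5, in view. Part of these shares was thus set in advance, and they describe the lists without testing them.

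Inhbe had 4.56, 5.84, 6.76, 7.30 and 3.64 in fasted Mcl1KO livers, against 6.33, 5.01, 6.16, 6.83 and 6.82 in fed Mcl1KO livers. It had 7.14, 5.96, 6.28, 4.54 and 6.48 in fasted WT livers, against 5.53, 5.87, 6.77, 6.54 and 6.83 in fed WT livers. All 4 groups overlapped, and the highest and the lowest of the 20 livers were both fasted Mcl1KO livers. Inhbe differed with fasting by -0.61 in Mcl1KO livers (SE 0.54, limma adjusted p = 0.578) and by -0.23 in WT livers (limma adjusted p = 0.899). Its group means were 5.62 ± 1.52 in fasted Mcl1KO, 6.23 ± 0.74 in fed Mcl1KO, 6.08 ± 0.96 in fasted WT and 6.31 ± 0.58 in fed WT livers, none apart beyond the spread.

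Inhbc, which encodes the related liver subunit βC, had 6.18, 6.03, 7.42, 7.20 and 6.06 in fasted Mcl1KO livers, against 7.78, 7.99, 8.05, 7.95 and 7.89 in fed Mcl1KO livers. It fell by 1.35 (limma adjusted p = 0.000280), without overlap between the groups. In the fasted Mcl1KO group, replicates 3 and 4 had the 2 highest values of Inhbc, of Inhbe, of Met and of Lect2, and the 2 lowest of Ddit4. Across 18 other activin and TGF-β family genes, 1 rose and 2 fell in Mcl1KO livers and 0 rose and 2 fell in WT livers. Inhba, the activin βA subunit, fell by 0.70 in Mcl1KO livers (limma adjusted p = 0.0260) and by 0.89 in WT livers (limma adjusted p = 0.00929). Bmp6, which drives hepcidin expression, rose by 0.71 in Mcl1KO livers (limma adjusted p = 0.000995).

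Fst ranged from 4.11 to 4.51 in fasted Mcl1KO livers, from 3.75 to 4.22 in fed Mcl1KO livers, from 3.73 to 4.66 in fasted WT livers and from 3.74 to 4.59 in fed WT livers. The groups overlapped and no difference was called. The largest of the 4 pairwise differences was 0.26 for fasting in Mcl1KO livers (limma adjusted p = 0.367).

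Fetub ranged from 9.84 to 10.18 in fasted Mcl1KO livers, from 10.17 to 10.27 in fed Mcl1KO livers, from 9.98 to 10.53 in fasted WT livers and from 10.04 to 10.32 in fed WT livers. Its fasting difference was -0.23 in Mcl1KO livers (limma adjusted p = 0.187, exact permutation p = 0.0238) and 0.04 in WT livers. Ahsg lay between 11.97 and 12.24 in all 20 livers, near the highest value of any probe set (12.56), where array signals are compressed, and its 4 pairwise differences were at most 0.08. Among 7 other cystatin superfamily genes, 0 were called with fasting in Mcl1KO livers (Cst7 differed most, by 0.28, limma adjusted p = 0.227). In WT livers Hrg, histidine-rich glycoprotein, rose by 0.34 (limma adjusted p = 0.0176) and Kng2, a kininogen, fell by 0.33 (limma adjusted p = 0.0310).

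**Figure D2:**
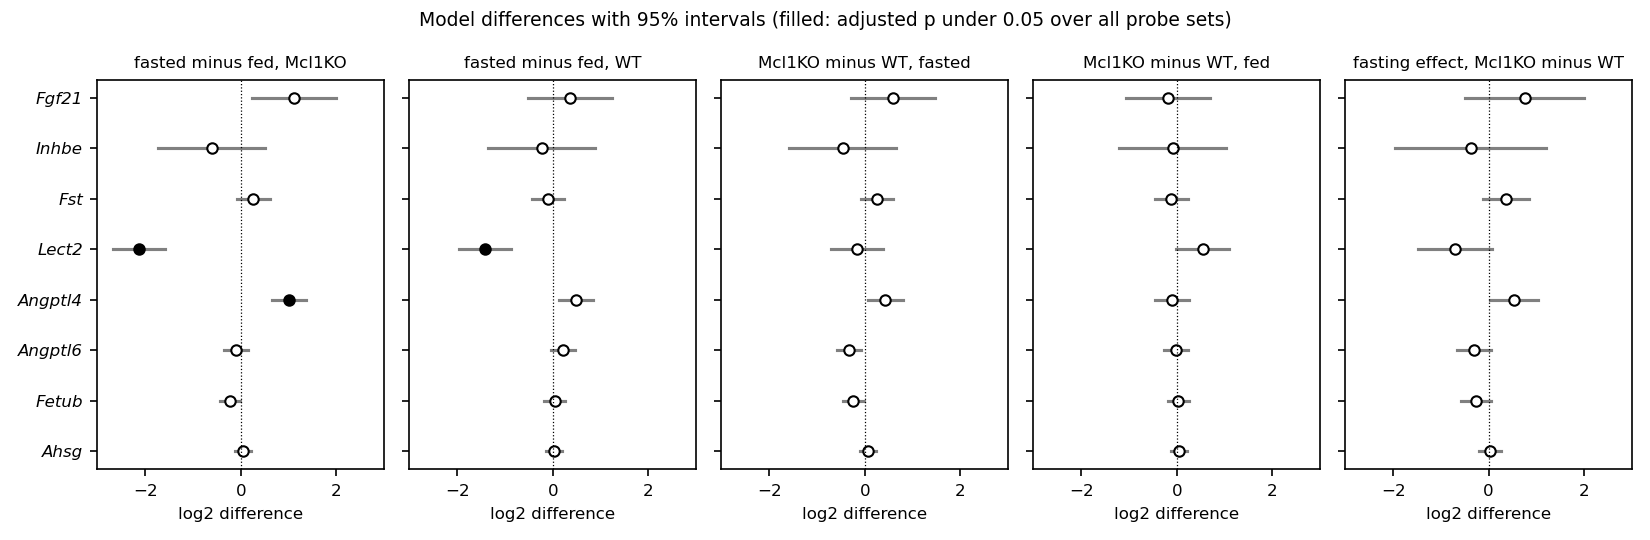
Log2 difference of each of the 8 members with its 95% interval from limma, for fasting in Mcl1KO livers, fasting in WT livers, Mcl1KO minus WT in fasted and in fed livers, and the interaction. Filled points are called, and they are Lect2 with fasting in both genotypes and Angptl4 with fasting in Mcl1KO livers.

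Between genotypes no member was called. In fasted livers 0 of 8 were called by limma and 3 had an unadjusted p under 0.05, as had 4065 of all 22206 probe sets, where 4.99% of all probe sets were called (3.32% higher, 1.67% lower in Mcl1KO). In fed livers 0 of 8 were called and 0 had an unadjusted p under 0.05, against 1429 of all probe sets, where 0.036% of all probe sets were called and 1.57% had groups that did not overlap. For the interaction 0 of 8 were called by limma and 1, Angptl4, had an unadjusted p under 0.05, as had 2477 of all probe sets, where 0.135% of all probe sets were called. The fasting comparisons share their fasted Mcl1KO and fasted WT livers with the genotype comparison, so these counts are not independent.

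The plot of differences shows Fgf21 and Inhbe with the widest intervals, and variation among livers of 1 group was examined through deviations from the group means over the 20 livers. Over 28 pairs of members, Inhbe and Lect2 was the pair that passed adjustment (Pearson r = 0.83, permutation p = 0.0003, adjusted 0.0084, and Spearman rho = 0.77, permutation p = 0.00103, adjusted 0.0288). Without fasted WT replicate 4 and fasted Mcl1KO replicate 5, the livers farthest out for Lect2, r was 0.69. Those livers also had the lowest Inhbe of their groups. Fgf21 and Inhbe gave r = 0.66 (permutation p = 0.0238, adjusted 0.279) and rho = 0.54 (permutation p = 0.061, adjusted 0.310), which did not pass. The livers share 1 normalisation, and all pairs of the 8 members were examined.

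**Figure D3:**
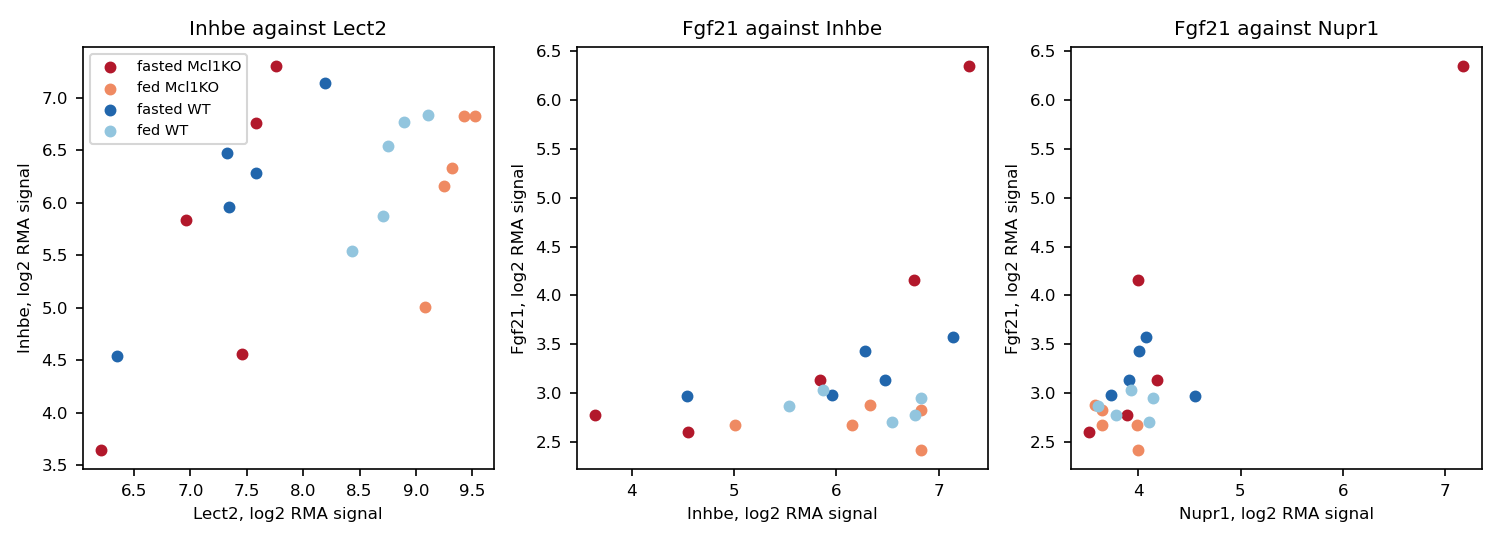
Log2 signals of Inhbe against Lect2, Fgf21 against Inhbe and Fgf21 against Nupr1, with 1 point for each of the 20 livers and colours for the 4 groups. Inhbe and Lect2 vary together within groups, and 1 fasted Mcl1KO liver stands far out for Fgf21 (6.35) and Nupr1 (7.18).

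The genes most like each member were ranked by Pearson r over the 20 arrays among 18544 genes, as a description in which the 4 groups are shared. For Lect2 they were H2-Q10 (0.95) and H2-T10 (0.94), MHC class I genes whose close copies make the probe assignment uncertain. For Angptl4 they were Slc22a5 (0.94), the carnitine transporter, and Acot1 (0.93), an acyl-CoA thioesterase. Slc22a5 rose by 1.20 with fasting in Mcl1KO livers (limma adjusted p = 0.000492) and differed by 0.54 in WT livers (limma adjusted p = 0.190). Acot1 rose by 3.18 in Mcl1KO livers (9.04-fold, limma adjusted p = 1.08e-06) and differed by 1.04 in WT livers (limma adjusted p = 0.0953).

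For Fgf21 they were Nupr1 (0.88) and Tceal8 (0.88). Nupr1 had 3.52, 4.18, 4.0, 7.18 and 3.89 in fasted Mcl1KO livers, and the other 3 groups lay between 3.58 and 4.55. Its highest value was in fasted Mcl1KO replicate 4, the liver with the highest Fgf21, and the plot of pairs of genes shows the other livers close together for Nupr1. That liver weighs heavily in the r of Nupr1 with Fgf21. Replicate 3 of that group, second highest for Fgf21, had a Nupr1 of 4.0, within the range of the other groups. For Inhbe they were Rtn4 (0.84), a reticulon of the endoplasmic reticulum, and Nfe2l1 (0.84), a regulator of proteasome genes. In deviations from the group means, Inhbe gave r = 0.87 with Rtn4 and 0.86 with Nfe2l1, against 0.83 with Lect2. The variation that Inhbe and Lect2 share is thus not particular to the members. The nearest genes of the other members had r from 0.75 to 0.82, namely BB014433 and Klri2 for Angptl6, Itga5 and Tex33 for Fst, Ckm and Pm20d2 for Fetub, and Cd83 and Ddias for Ahsg. BB014433, Klri2, Tex33 and Ddias had group means of 2.56 to 2.73, 2.13 to 2.30, 2.60 to 2.75 and 2.62 to 2.87, below the array medians. The top r among 18544 genes on 20 arrays is high even for unrelated genes. That level was not computed, so these genes are not read as linked to the members.

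Other secreted hepatokines also moved in both directions, with 3 of 19 higher and 5 lower with fasting in Mcl1KO livers and 2 higher and 4 lower in WT livers. Igfbp2, an insulin-like growth factor binding protein, rose by 1.24 in Mcl1KO livers (limma adjusted p = 1.91e-06) and by 0.57 in WT livers (limma adjusted p = 0.0181). Orm2, an acute phase glycoprotein, fell by 1.95 in Mcl1KO livers (limma adjusted p = 0.000966) and by 1.64 in WT livers (limma adjusted p = 0.00967). Enho, which encodes adropin, fell by 0.86 in Mcl1KO livers (limma adjusted p = 2.84e-06). In Mcl1KO livers Igfbp1 rose by 1.56 (limma adjusted p = 0.0183).

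Of 25 measured transcription factors and coactivators known for the members, 6 rose and 6 fell with fasting in Mcl1KO livers, and 3 rose and 4 fell in WT livers. Ppargc1a, a coactivator of PPARα, rose by 1.64 in Mcl1KO livers (limma adjusted p = 5.01e-05) and by 1.80 in WT livers (limma adjusted p = 4.00e-05). Mlxipl, the carbohydrate response factor ChREBP, fell by 1.75 in Mcl1KO livers (limma adjusted p = 1.58e-08) and by 1.39 in WT livers (limma adjusted p = 1.02e-06).

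**Figure D4:**
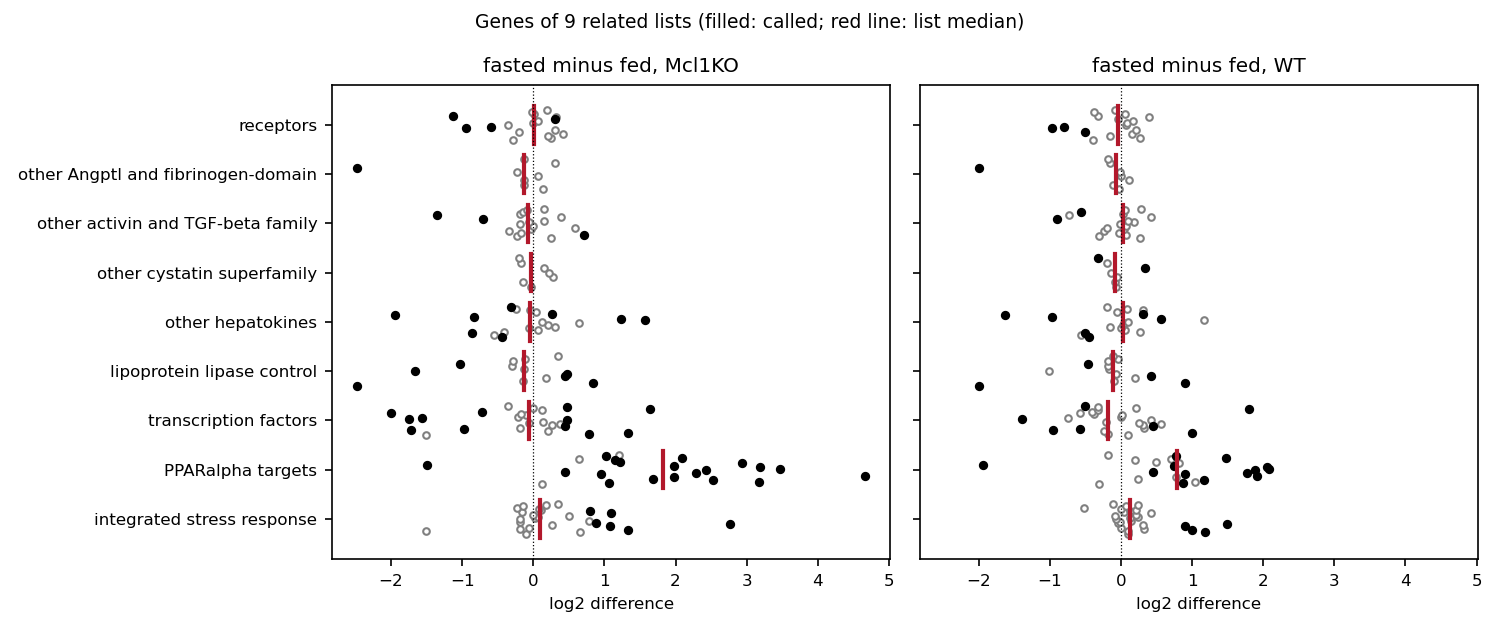
Log2 fasting difference of each measured gene in 9 lists of related genes, in Mcl1KO livers on the left and WT livers on the right, with filled points for called genes and a red line at each list's median. PPARα targets lie farthest to the right, with medians of 1.83 in Mcl1KO livers and 0.79 in WT livers.

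Markers of other liver cells moved with fasting beside the calls of Lect2 and Angptl4. Of 15 Kupffer cell markers, 1 rose and 4 fell in Mcl1KO livers and 0 rose and 6 fell in WT livers. The log2 of their summed signal lay between 10.06 and 10.72 in fasted Mcl1KO livers, against 11.03 to 11.35 in fed Mcl1KO livers, and between 9.81 and 10.13 in fasted WT livers, against 10.76 to 11.11 in fed WT livers. That sum is carried by the brightest marker, C6, at means of 8.75 in fasted Mcl1KO, 10.42 in fed Mcl1KO, 8.43 in fasted WT and 9.88 in fed WT livers. The median difference over the 15 markers was -0.18 in Mcl1KO livers and -0.59 in WT livers, and Cd163, another Kupffer cell marker, rose by 0.63 in Mcl1KO livers (limma adjusted p = 0.0199). Of 9 adipocyte markers, 2 rose in Mcl1KO livers and 1 in WT livers, with sums of 8.09 to 9.80 in fasted Mcl1KO livers and 6.32 to 6.84 in fed Mcl1KO livers. The markers called in Mcl1KO livers were Cidec, also counted above as a PPARα target, which averaged 7.71 in fasted and 3.04 in fed Mcl1KO livers, and Fabp4, a fatty acid binding protein, which averaged 6.88 in fasted and 4.23 in fed Mcl1KO livers. Cidec was the 1 called in WT livers. Among the 7 markers not called in Mcl1KO livers, the defining adipocyte genes Adipoq, Lep and Plin1 had group means of 2.12 to 2.28, 2.27 to 2.36 and 2.66 to 2.95, below the array medians. Of 14 sinusoidal endothelial markers, 4 rose and 0 fell in Mcl1KO livers and 1 rose and 3 fell in WT livers. Of 12 stellate cell and fibroblast markers, 2 rose and 2 fell in Mcl1KO livers and 0 rose and 2 fell in WT livers. Of 16 hepatocyte markers, 3 rose and 1 fell in Mcl1KO livers and 2 rose and 0 fell in WT livers. Of 10 neutrophil and monocyte markers, 1 rose in Mcl1KO livers. No cholangiocyte, lymphocyte or exocrine pancreas marker was called with fasting in either genotype. Between fasted Mcl1KO and fasted WT livers 6 Kupffer cell markers were higher and 0 lower. The part of these markers in the results for Lect2 and Angptl4 was not tested.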

How the data were processed

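The values used are the authors' deposited log2 signals. The submitters' processing notes name RMA and Partek 7.0. The log base is not stated, and log2 is assumed. RMA brings the arrays towards a common distribution, although the medians of the deposited arrays differ slightly, and it compresses differences of dim probe sets. Probe set symbols come from the platform annotation (19572 of 22206 probe sets had 1 symbol).

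Each member was 1 probe set. All 20 arrays entered 1 linear model with a mean for each group, in limma 3.58.1 and R 4.3.3, moderated by eBayes (prior df 6.95), with Benjamini-Hochberg adjustment over all probe sets and a call at an adjusted p under 0.05. Contrasts were fasted minus fed, Mcl1KO minus WT, and the fasting difference in Mcl1KO minus that in WT. Exact permutation tests were two-sided over 252 splits. Deviation correlations used permutation within groups. Scripts were tested on simulated data. Precision is limited by 5 arrays a group; the labels call them biological replicates.

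The members and the 18 gene lists (276 symbols, 251 measured) were chosen with earlier results of these data known. Named besides the members are, per list and comparison, up to 2 called genes that differed most in each direction, or, with no call, the 1 gene that differed most, and the 2 genes most correlated with each member. Klb, Adipoq, Lep and Plin1, and the values of Met, Inhbc and Ddit4 in single livers, were singled out after their values were seen. Same-numbered arrays did not deviate together (r from -0.19 to 0.166 over 30 pairs, 1 pair over 0.1), so numbers were not treated as pairs. Alternatives were a filter on dim probe sets, quantile normalisation, median centring, trend and robust moderation, an ordinary model, arrays left out, array weights, fits of only the groups compared and a replicate block.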

Additional observations from a re-analysis of the deposited data

Results flagged for a closer look

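Ahsg in fasted WT replicate 4 stood at 12.15 (log2 signal), while none of the 4 remaining livers of its group exceeded 12.04, a gap of 0.736 of the group's whole range. It was 1 of 32 combinations of member and group tested, and chance alone gives about 1 in 20. That liver was the highest or the lowest of its group for 8 of 8 members, and for 47% of all probe sets, against 35.8% to 43.6% on the other arrays.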

How the results depend on the processing

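The 40 differences of members were recomputed 1147 times in all. In these, 0 lost a call, 5 gained one and 23 changed sign. Many of them could not change a sign. Leaving out a liver outside the comparison, or changing only the moderation, can move the p-value but not the difference. Lect2 remained called under every alternative run, with differences of -2.27 to -1.88 in Mcl1KO livers and -1.63 to -1.17 in WT livers when 1 liver at a time was left out. Angptl4 remained called with fasting in Mcl1KO livers, between 0.85 and 1.08 when 1 liver at a time was left out and between 0.98 and 1.13 under the other alternatives. Leaving out 1 liver at a time, members called ranged from 2 to 3 with fasting in Mcl1KO livers and from 1 to 2 in WT livers, and stayed at 0 in the other comparisons. With array weights 2 members were called in WT livers, since Angptl4 gave 0.53 (limma adjusted p = 0.0450). With the replicate number as a replicate block, members called were 2 with fasting in Mcl1KO livers, 1 in WT livers and 0 elsewhere, as without it, and no call changed.

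Differences that changed sign were all uncalled. Leaving out 1 liver at a time, Mcl1KO minus WT in fasted livers ranged from -0.05 to 0.89 for Fgf21, -0.88 to 0.03 for Inhbe and -0.42 to 0.08 for Lect2. In fed livers it ranged from -0.17 to 0.06 for Angptl4, -0.11 to 0.08 for Angptl6, -0.27 to 0.22 for Inhbe, -0.21 to 0 for Fst and -0.01 to 0.07 for Fetub. The fasting difference ranged from -0.18 to 0 for Angptl6 in Mcl1KO livers and, in WT livers, from -0.50 to 0.15 for Inhbe, -0.25 to 0.01 for Fst, -0.04 to 0.10 for Fetub and -0.01 to 0.03 for Ahsg. The interaction of Inhbe ranged from -0.80 to 0.11.

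Leaving out fasted Mcl1KO replicates 3 and 4 together was chosen after seeing the data, and these are also the livers highest for Fgf21 and Inhbe. Fgf21 then gave 0.15 for fasting in Mcl1KO livers (limma adjusted p = 0.643), -0.38 for Mcl1KO minus WT in fasted livers and -0.21 for the interaction, and Inhbe gave -1.55 for fasting in Mcl1KO livers (limma adjusted p = 0.0354), so that 3 members were called with fasting in Mcl1KO livers. The causes of these changes were not tested. Fgf21 has no value under the filter on dim probe sets, since its mean lies below the median of all probe sets, and no member has a further probe set to try. With 5 livers a group, 95% intervals of Fgf21 and Inhbe span about 1 log2 unit to either side.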
